A study of Rattus norvegicus with 8 samples.

Results

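The 2 long H2AK119ub1 domains described here lie in rat sciatic nerve at the positions expected for the Hoxb and Hoxc gene clusters. Their members were all called regions that overlap chr10:83905885-84034434 (128.55 kb) or chr7:142304406-142383037 (78.6 kb) in the rn5 assembly. There were 283 such regions of 181386 in all, of which 168 lay in the chromosome 10 interval and 115 in the chromosome 7 interval. The members were chosen by measured values, namely the length and coverage of merged calls in these lists: the limits on chromosome 10 are the edges of a long domain after injury, and those on chromosome 7 the edges of a long domain in sham nerve. Length, coverage, region number and region width in the intervals are therefore descriptions of a choice, and no test was made on them.

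H2AK119ub1 is histone H2A carrying a single ubiquitin on a lysine of its C-terminal tail. It is deposited by Polycomb repressive complex 1 (PRC1), which together with the H3K27 methyltransferase complex PRC2 keeps developmental genes silent. Hox genes encode homeodomain transcription factors that give cells their position along the body axis. They stand in compact clusters, and a cluster that is silent in a given cell is among the best-known examples of chromatin covered by Polycomb marks over a long stretch. In peripheral nerve the main cell type is the Schwann cell, which wraps axons and changes to a repair state after injury.

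The gene identity of both intervals was inferred from position and was not read from an annotation of rn5. A RefSeq gene table of a later rat assembly, GRCr8, was used only for names, chromosomes and gene order. It placed all 10 Hoxb genes of the list on chromosome 10, in the order Hoxb13, Hoxb9, Hoxb8, Hoxb7, Hoxb6, Hoxb5, Hoxb4, Hoxb3, Hoxb2 and Hoxb1, with no other protein-coding gene between them. Ttll6 and Skap1 were the neighbours on either side. All 9 Hoxc genes were on chromosome 7, in the order Hoxc13, Hoxc12, Hoxc11, Hoxc10, Hoxc9, Hoxc8, Hoxc6, Hoxc5 and Hoxc4, between Tbcal1 and Smug1. The chromosomes thus match the label, but no region was assigned to a gene, a promoter or an intron, and no base sequence of the regions is shown because no rn5 genome was used.

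Nerves came from male Sprague Dawley rats labelled P28 (postnatal day 28), whereas the protocols and the study call them adult, and no transgene is named. In the injury group the sciatic nerve was cut and the distal stump was taken at 1 day post injury (1 dpi). In the sham group the contralateral limb received a skin incision only, so both groups come from the same kind of animal and, per the study, from 2 rats. Each group had 2 H2AK119ub1 ChIP-seq libraries and 2 input libraries, and the deposited data are 1 list of called regions per condition, made from the combined libraries. Each value below therefore stands for 1 list, without a spread between animals. The tissue is whole nerve, in which fewer marked cells and less mark per cell cannot be told apart.

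The lists differ in depth, which touches every difference between conditions below. Calls used 19714687 tags in sham and 76420053 at 1 dpi, that is 3.88 times as many. A region needed 10 tags in sham, 8.09 times the tags expected by the caller, and 20 tags at 1 dpi, 3.53 times. Over the whole genome, 1 dpi had 1.21 times as many regions and 1.16 times as many covered bases as sham. The share of tags inside called regions went the other way, with 9.73% in sham and 5.33% at 1 dpi. Depth and condition cannot be told apart in these lists, and the part of depth in the results was not tested.

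The first question was how densely each interval was covered. In the chromosome 10 interval, 84 sham regions covered 25.5 kb, or 19.9% of the interval, and 84 regions at 1 dpi covered 39.7 kb, or 30.9%. In the chromosome 7 interval, 59 sham regions covered 18.3 kb, or 23.3%, and 56 regions at 1 dpi covered 31.2 kb, or 39.6%. The region numbers were thus equal or nearly so, and the additional bases at 1 dpi came with wider regions. The ratio of covered bases, 1 dpi to sham, was 1.56 on chromosome 10 and 1.70 on chromosome 7. Outside the intervals coverage was thinner, which follows in part from placing the limits at the ends of merged domains. In the 50 kb flanks sham coverage lay between 1.65% and 6.06%, and 1 dpi coverage between 2.64% and 14.6%.

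**Figure D1:**
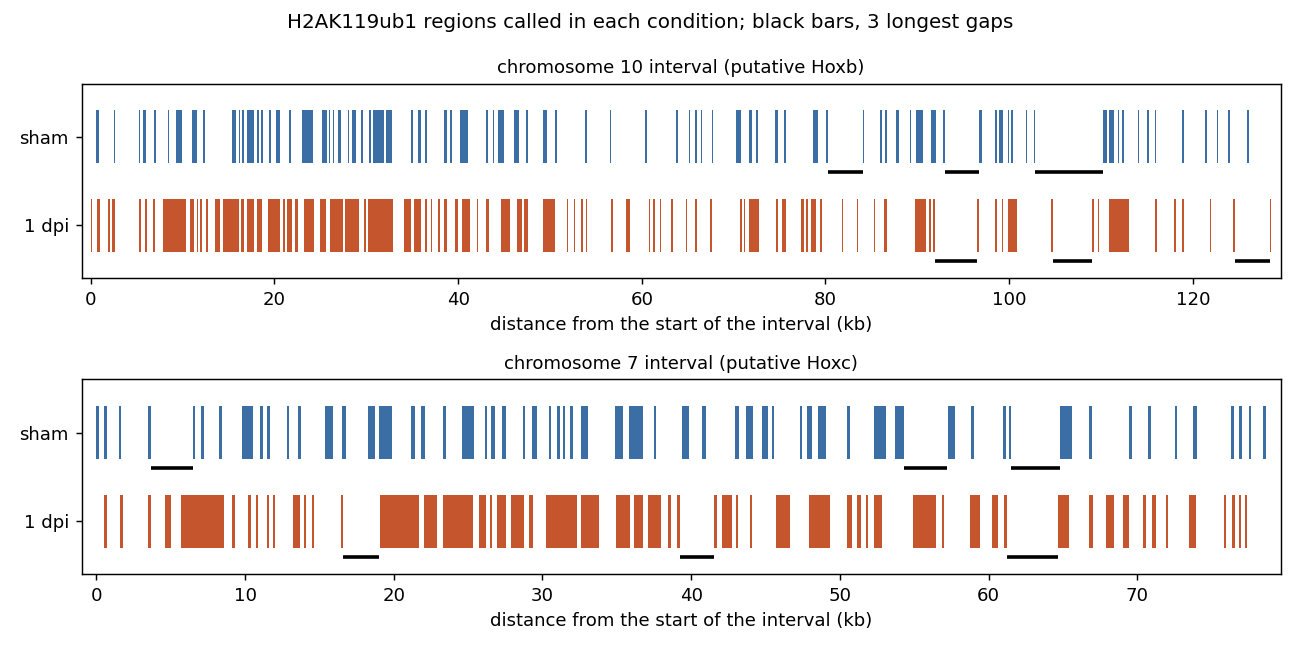
Called H2AK119ub1 regions in sham nerve (blue) and at 1 dpi (orange) along each interval, with distance from the start of the interval in kb on the x axis and 1 row per condition. Black bars mark the 3 longest gaps of each condition. On chromosome 10 the regions crowd into the first 50 kb and are wider at 1 dpi, and on chromosome 7 the widest 1 dpi region (2878 bp) lies over 3 short sham regions.

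Regions within the intervals were wide for these lists, which follows in part from choosing well covered intervals. On chromosome 10 the median width was 192 bp in sham (mean 304 bp, SD 225 across 84 regions) and 244.5 bp at 1 dpi (mean 473 bp, SD 532 across 84 regions). On chromosome 7 it was 194 bp in sham (mean 310 bp, SD 216 across 59 regions) and 239.5 bp at 1 dpi (mean 556 bp, SD 621 across 56 regions). The median over each whole list was 151 bp, the width of a single calling window. Single windows made up 32.1% of sham and 33.3% of 1 dpi regions on chromosome 10, and 33.9% and 23.2% on chromosome 7, against 60.7% and 60.2% in the whole lists. These SDs describe regions of 1 list and not animals.

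Very wide regions set the conditions apart. On chromosome 10, 2 sham regions and 12 at 1 dpi reached 1000 bp, and they held 9.49% and 47.8% of the covered bases. On chromosome 7 there was none among the 59 sham regions, and 7 at 1 dpi held 44.3% of the covered bases. In the whole lists 0.940% of sham and 1.09% of 1 dpi regions were that wide. At a width of at least 500 bp there were 15 sham and 21 1 dpi regions on chromosome 10, and 11 and 18 on chromosome 7, against 6.52% and 4.80% of the whole lists.

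**Figure D2:**
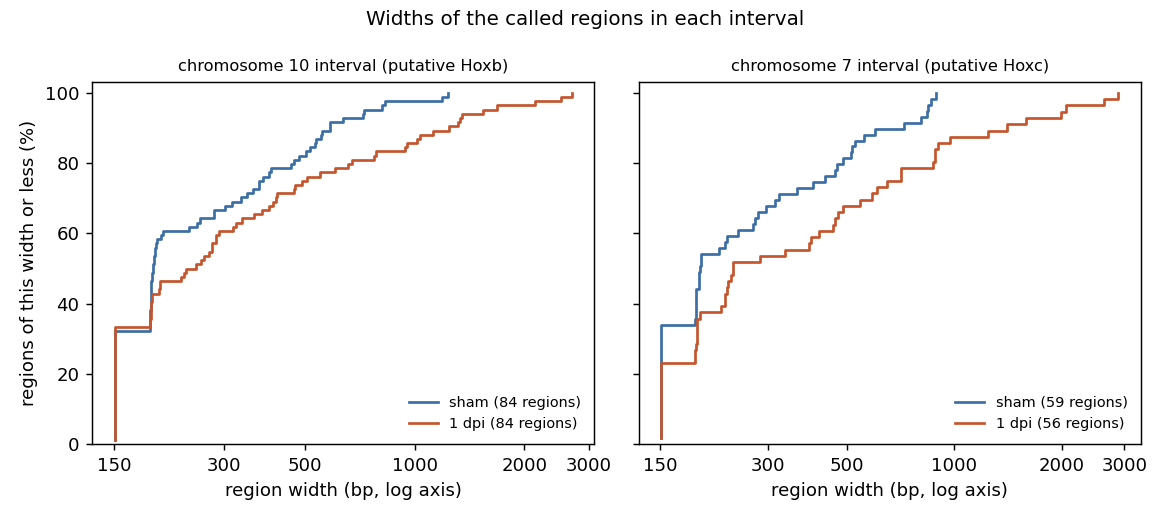
Cumulative share of regions (y axis, %) by width (x axis, bp, log axis) in sham nerve (blue) and at 1 dpi (orange), for each interval. The lines start close together at the single window of 151 bp on chromosome 10 and part above it, reaching 1236 bp in sham and 2692 bp at 1 dpi, and 887 and 2878 bp on chromosome 7.

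The widest 1 dpi region on chromosome 10, chr10:83936125-83938816, measured 2692 bp and began 30.2 kb into the interval. It met 3 sham regions that covered 73.0% of it, one of which, chr10:83936615-83937802 (1188 bp), was the second widest sham region of the interval and lay wholly within it. The widest sham region, chr10:83928881-83930116, measured 1236 bp, and a single 1 dpi region covered 79.2% of it. The third widest, chr10:83946138-83946966 (829 bp), was covered to 82.4%. At these places both lists thus put their wide calls on the same bases.

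The next 1 dpi regions matched less closely. The second widest, chr10:83913706-83916230 (2525 bp, 7.82 kb into the interval), met 2 sham regions that covered 34.6% of it. The third, chr10:84016753-84018887 (2135 bp, 110.9 kb into the interval), met 3 sham regions covering 42.5%. The latter stood apart from the crowded first 50 kb, in a stretch with few other wide calls in either list.

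On chromosome 7 the wide calls of the lists coincided less. The widest 1 dpi region, chr7:142310105-142312982 (2878 bp, 5.70 kb into the interval), met 3 sham regions that together covered only 532 bp, or 18.5% of it. The third widest, chr7:142334657-142336710 (2054 bp), met 4 sham regions, none wider than 189 bp, which covered 31.3%. In between by width, chr7:142323445-142326080 (2636 bp) met 2 sham regions over 43.1% of its length and held all but a few bases of the second widest sham region, chr7:142323442-142324304 (863 bp, covered to 99.7%). The widest sham region, chr7:142340248-142341134 (887 bp), was covered to 66.5% by 2 regions at 1 dpi, and the third, chr7:142356672-142357516 (845 bp), to 64.3% by 1.

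Some 1 dpi regions met several sham regions. On chromosome 10, 9 of the 84 regions at 1 dpi met 2 or more sham regions, and 1 of the 84 sham regions met 2 or more at 1 dpi. On chromosome 7 these numbers were 6 of 56 and 1 of 59, against 0.648% of 1 dpi and 0.601% of sham regions in the whole lists. Of the sham regions, 28 on chromosome 10 and 16 on chromosome 7 were covered over their whole length at 1 dpi. In the other direction it was 2 and 4 of the 1 dpi regions. The shares over the whole lists were 4.97% of sham and 2.58% of 1 dpi regions. The intervals were chosen as stretches of dense calls, so these contrasts with the whole lists follow largely from that choice. Wider regions also meet and cover others more readily, and the 1 dpi regions were wider on average.

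The second question was whether the same bases were called in both conditions. On chromosome 10, 56 of 84 sham regions shared at least 1 bp with a 1 dpi region, or 66.7% (Wilson 95% interval 56.1 to 75.8%), and 46 of 84 regions at 1 dpi shared one with sham, or 54.8% (44.1 to 65.0%). On chromosome 7 the counts were 41 of 59, or 69.5% (56.9 to 79.7%), and 33 of 56, or 58.9% (45.9 to 70.8%). In the whole lists 20.7% of sham and 16.8% of 1 dpi regions were overlapped. The Wilson intervals cover counting error only, and they treat neighbouring regions of 1 list as independent, which these are not. Dense, wide calls also meet each other more readily than sparse ones.

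Counted in bases, agreement was closer on chromosome 10. There 16.3 kb were covered in both lists, 9.24 kb in sham only and 23.4 kb at 1 dpi only. On chromosome 7, 9.64 kb were covered in both, 8.65 kb in sham only and 21.5 kb at 1 dpi only. Of the sham bases, 63.8% on chromosome 10 and 52.7% on chromosome 7 were also covered at 1 dpi, whereas 1 dpi regions covered 22.8% and 35.6% of the bases outside sham regions. The excess over the rest of the same interval was thus smaller on chromosome 7. Of the 1 dpi bases, 41.0% and 31.0% were also covered in sham. Bases in neither list made up 61.9% of the chromosome 10 interval and 49.4% of the chromosome 7 interval.

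Joining regions that overlap gave 111 separate stretches on chromosome 10, of which 45 held both conditions, 28 sham only and 38 1 dpi only. On chromosome 7 there were 73 stretches, with 32, 18 and 23. Such stretches were not counted over the whole lists, where 20.7% of sham and 16.8% of 1 dpi regions were overlapped. Stretches with both held 74.3% and 67.8% of all covered bases. Those of 1 condition alone had a median of 151 bp for either condition on chromosome 10, and 171.5 bp for sham and 190 bp for 1 dpi on chromosome 7. The median region of each whole list was also 151 bp. Most stretches of 1 condition alone lay close to a call of the other list. Within 1 kb of a 1 dpi region there were 26 of the 28 unmatched sham regions on chromosome 10 and 17 of 18 on chromosome 7, and 29 of 38 and 23 of 23 for unmatched 1 dpi regions near a sham region. With the overlapped ones, 97.6% and 98.3% of sham regions and 89.3% and 100% of 1 dpi regions had such a neighbour. In the whole lists the shares over all regions were 41.6% and 38.2%, and no share was computed there for unmatched regions alone. The intervals were chosen as stretches of dense calls, so a neighbour within 1 kb follows largely from that choice.

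A few wide regions had no counterpart. These were chosen after their values were seen. On chromosome 7, the 1 dpi region chr7:142359292-142360878 (1587 bp) shared no base with a sham region, and the nearest sham call was 591 bp away. That neighbour, chr7:142358102-142358700 (599 bp), was in turn the widest sham region of the interval without a 1 dpi counterpart. On chromosome 10 the widest without a counterpart were smaller, at 551 bp for 1 dpi (chr10:83919444-83919994) and 384 bp for sham (chr10:84016113-84016496). All 15 sham regions of at least 500 bp on chromosome 10 were overlapped, and 20 of 21 at 1 dpi. On chromosome 7 it was 8 of 11 and 15 of 18, against 54.9% and 64.5% of regions of that width in the whole lists.

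The third question concerned the profile along each interval, read in bins of 5 kb. The chromosome 10 interval had a dense part over its first 50 kb in both conditions. Beyond it came a thin stretch from 50 to 70 kb, a moderate and uneven one from 70 to 100 kb and an isolated block at 110 to 115 kb. In the dense part, coverage per bin reached 2092 bp in sham (30 to 35 kb) and 3604 bp at 1 dpi (25 to 30 kb), or 41.8% and 72.1% of the bin. Between 55 and 60 kb it was 193 bp in sham and 589 bp at 1 dpi. At 110 to 115 kb it rose again to 1484 and 2135 bp.

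The difference between conditions on chromosome 10 lay mainly in the dense part. The first 32.1 kb held 10.1 kb of covered bases in sham and 18.1 kb at 1 dpi. From 64.3 to 96.4 kb the values were close, with 5.36 kb in sham and 6.09 kb at 1 dpi. Of the 26 bins, 18 (69.2%) had more coverage at 1 dpi, 6 had less and 2 were equal. Over the genome, 70.4% of 5513 domains merged from both lists had more coverage at 1 dpi, a similar share. It counts whole domains, however, and bins were not counted over the genome. The bins with less were all small differences, of at most 283 bp, against a largest excess of 1664 bp at 10 to 15 kb. One bin, 105 to 110 kb, was empty in sham and held 352 bp at 1 dpi.

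**Figure D3:**
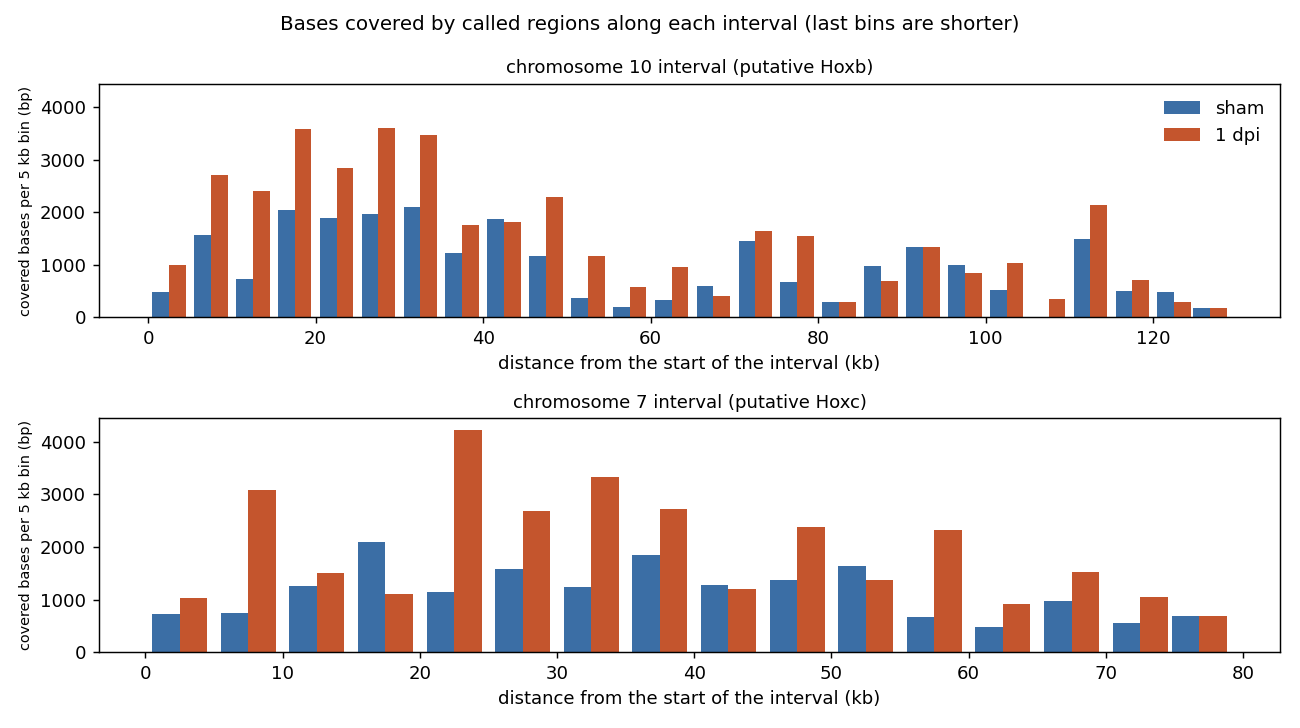
Bases covered by called regions in successive 5 kb bins (y axis, bp) against distance from the start of the interval (x axis, kb), in sham nerve (blue) and at 1 dpi (orange). The chromosome 10 profile falls after 50 kb in both conditions, and the chromosome 7 profile shows its highest sham bin (2093 bp, 15 to 20 kb) next to its highest 1 dpi bin (4235 bp, 20 to 25 kb).

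The chromosome 7 interval was more evenly filled in sham, where bins ranged from 475 to 2093 bp with no empty bin. At 1 dpi the calls were concentrated between 20 and 40 kb. The stretch from 19.7 to 39.3 kb was covered to 67.7% at 1 dpi and to 28.7% in sham. In the bin from 20 to 25 kb, 1 dpi coverage was 4235 bp, or 84.7% of the bin, against 1149 bp in sham. The bin just before it, from 15 to 20 kb, was the highest of the sham list with 2093 bp, and there 1 dpi had 1112 bp. Large excesses at 1 dpi were also found at 5 to 10 kb (3083 against 741 bp) and at 55 to 60 kb (2315 against 676 bp). Of the 16 bins, 12 (75%) had more coverage at 1 dpi and 4 had less, beside the 70.4% of merged domains over the genome.

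Bins that were well covered in sham were also well covered at 1 dpi on chromosome 10, and this was less clear on chromosome 7. Across the 26 bins of chromosome 10, Pearson r between sham and 1 dpi coverage was 0.866 and Spearman rho 0.861. Across the 16 bins of chromosome 7, r was 0.202 and rho 0.353. These coefficients describe neighbouring bins of the same 2 lists, which are not independent, and the difference between the intervals was not tested.

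**Figure D4:**
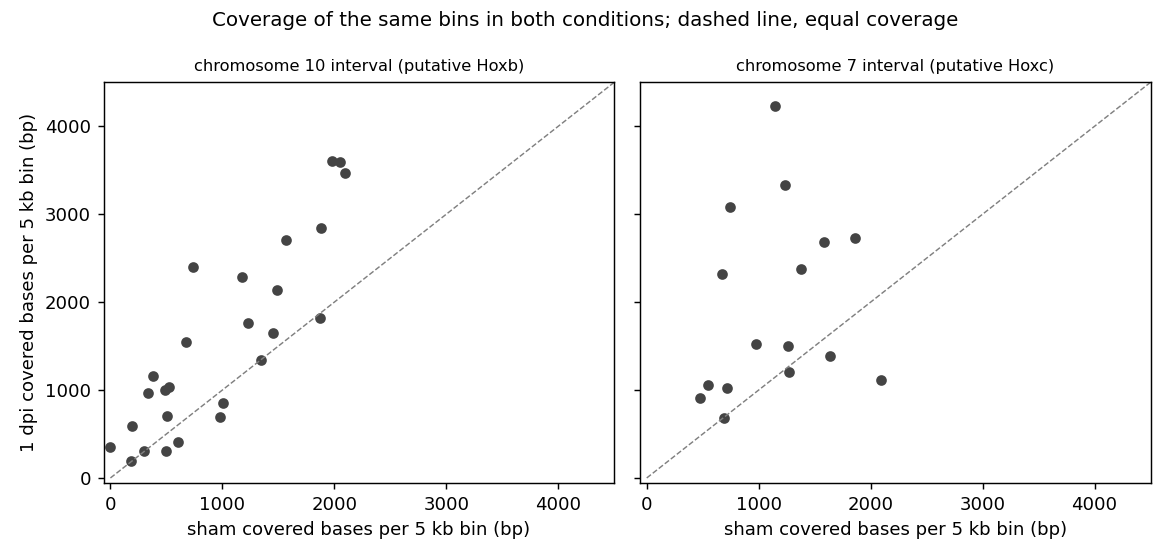
Covered bases per 5 kb bin in sham (x axis, bp) and at 1 dpi (y axis, bp), 1 point per bin, for each interval. The dashed line marks equal coverage. Chromosome 10 bins rise together (r = 0.866, 26 bins), and chromosome 7 bins scatter (r = 0.202, 16 bins), with most points of both intervals above the line.

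Gaps, meaning uncalled bases between neighbouring regions of a list, were mostly short. Their median on chromosome 10 was 845 bp in sham and 646 bp at 1 dpi, and on chromosome 7 it was 833 and 542 bp. Gaps of at least 2 kb numbered 14 in sham and 13 at 1 dpi on chromosome 10, where they took up 35.6% and 31.3% of the interval. On chromosome 7 there were 6 and 4, which took up 20.1% and 13.0%.

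The longest gap of all lay on chromosome 10 in sham, chr10:84008694-84016112, and spanned 7.42 kb from 102.8 to 110.2 kb of the interval. Within it the 1 dpi list had 3 regions with 503 bp inside the gap, and a 1 dpi gap of 4.28 kb, chr10:84010645-84014927, lay wholly inside. This was also the longest stretch of the interval without a call in either condition. The longest 1 dpi gap, chr10:83997846-84002356 (4.51 kb), shared most of its length with the third longest sham gap, chr10:83998886-84002633 (3.75 kb), which left 3.47 kb free of calls in both. The second longest sham gap, chr10:83986139-83989945 (3.81 kb), held 2 regions at 1 dpi with 302 bp, and the third longest 1 dpi gap, chr10:84030468-84034246 (3.78 kb), held 1 sham region of 188 bp. Stretches of at least 2 kb without a call in either list numbered 7.

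On chromosome 7 the longest gap of both lists fell at the same place. It measured 3.29 kb in sham (chr7:142365945-142369232) and 3.47 kb at 1 dpi (chr7:142365632-142369102), and left 3.16 kb from 61.5 to 64.7 kb of the interval without a call in either. No other stretch of the interval without calls reached 2 kb. The remaining long gaps did not coincide. The next sham gaps, chr7:142358701-142361643 (2.94 kb) and chr7:142308096-142310898 (2.80 kb), contained 1781 and 1200 bp of 1 dpi calls. The next gaps at 1 dpi, chr7:142320986-142323444 (2.46 kb) and chr7:142343651-142345941 (2.29 kb), contained 666 and 714 bp of sham calls. The first of these 1 dpi gaps ends where the 2636 bp region begins.

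Edges were read from domains made by merging regions of a list within 5 kb. On chromosome 10 the left edges nearly coincided at this merging distance. The first region was chr10:83905885-83906035 at 1 dpi (151 bp, no sham counterpart) and chr10:83906441-83906774 in sham (334 bp, covered to 71.6% at 1 dpi), so the edges were 0.556 kb apart. To the left, the nearest call was 7.07 kb away in sham and 11.8 kb at 1 dpi. The right edges differed at this merging distance. The sham list broke at its 7.42 kb gap, which ended its long domain 25.7 kb before the 1 dpi edge after 102 kb, although further sham regions followed up to chr10:84031800-84031987. The last 1 dpi region was chr10:84034247-84034434 (188 bp), and the next calls came after 14.8 kb at 1 dpi and 16.9 kb in sham. Merged within 10 kb, the sham domain ran from 7.22 kb left of the 1 dpi domain to 2.45 kb before its right edge. The sham domain then spanned 133 kb, longer than the 128.55 kb at 1 dpi.

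On chromosome 7, with merging within 5 kb, the right edges lay close together and the left edges did not. The last regions were single windows, chr7:142381619-142381769 at 1 dpi and chr7:142382887-142383037 in sham, neither with a counterpart. On the left, the first sham region was chr7:142304406-142304597 (192 bp), with no sham call for 24.5 kb outside it. At 1 dpi the first region inside was chr7:142304918-142305149 (232 bp), but short calls went on outside from 2.55 kb away, and the merged 1 dpi domain began 20.3 kb further out, for a span of 97.6 kb against 78.6 kb in sham. The order turned with merging within 2 kb, where the longest domain spanned 20.2 kb at 1 dpi and 47.8 kb in sham. Those outer calls were sparse: 8 regions in 50 kb covered 1.33 kb and none was wider than 235 bp. On the right, 22 regions at 1 dpi and 11 in sham lay within 50 kb, covering 7.30 and 3.03 kb, the nearest being 6.73 and 7.21 kb away. The right flank of chromosome 7 was the best covered of the 4 flanks in both conditions. With regions merged within 10 kb, both domains ran past the right edge. They ended 73.4 kb beyond the interval in sham and 72.4 kb at 1 dpi.

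The lists give no peak height, but mean width fell along them (sham, 785 bp in the first 5% against 151 bp in the last 5%; 1 dpi, 816 against 151 bp), so listing position was taken as a rough order of strength. On chromosome 10, 12 of 84 sham regions and 25 of 84 at 1 dpi were among the first 5%, the share that any regions would hold on average. On chromosome 7 it was 7 of 59 and 18 of 56. The intervals were chosen for coverage, so high places of their regions follow in part from that choice. Counted from the top, the median member stood at 26.2% of the sham and 14.9% of the 1 dpi list on chromosome 10, and at 24.3% and 14.8% on chromosome 7. The first member was at place 892 in sham and 133 at 1 dpi on chromosome 10, and at 1062 and 188 on chromosome 7. By width alone, the widest members ranked 404 and 1061 among all sham regions and 73 and 54 among all 1 dpi regions. Calls from the end of both lists were present too, the last members standing at 96.1% of the sham and 94.1% of the 1 dpi list on chromosome 7 and nearly at the last place of both lists on chromosome 10.

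To place the intervals within the genome, regions of both lists were merged together within 5 kb, which gave 5513 joint domains of at least 10 kb. The domain of the chromosome 10 interval had the most covered bases of all, 49.0 kb, and ranked 1 in sham and 1 at 1 dpi. The domain of the chromosome 7 interval, which extended 33.8 kb further to the left and spanned 112 kb, was next with 42.4 kb, and ranked 4 in sham and 2 at 1 dpi. By span they ranked 14 and 22. These ranks follow in part from the way the intervals were chosen.

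The ratio of 1 dpi to sham coverage in these domains, 1.56 and 1.64, was close to the median of 1.46 over all joint domains (middle 50% from 0.886 to 2.35), of which 70.4% had more coverage at 1 dpi. Among the other 18 of the 20 best covered domains the median was 1.49 (range 0.688 to 3.33). The ratio of the intervals thus lay well within the background. The share of sham bases also covered at 1 dpi was 63.8% and 48.9%, against a median of 38.7% (range 20.5 to 73.9%) in those 18 and of 15.3% in all joint domains, which are mostly far less covered, with a median of 2.06 kb.

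**Figure D5:**
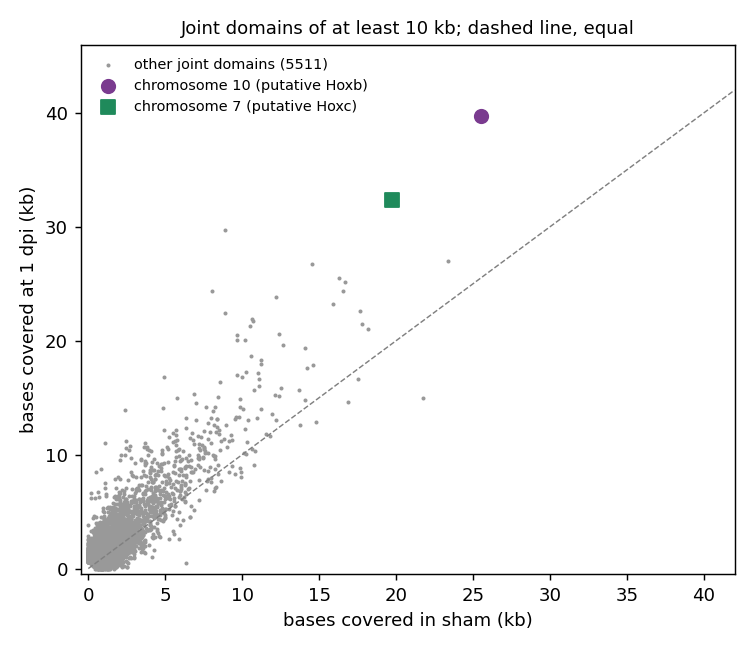
Bases covered in sham (x axis, kb) and at 1 dpi (y axis, kb) for each joint domain of at least 10 kb, 1 point per domain. The dashed line marks equal coverage. The domains of the chromosome 10 (25.5 and 39.7 kb) and chromosome 7 (19.7 and 32.3 kb) intervals are the upper 2 points, above the line like 70.4% of all 5513 domains.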

How the data were processed

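Per the labels and the study's methods, nerve chromatin was digested with micrococcal nuclease, libraries were made from ChIP and input DNA, bases were called with CASAVA 1.8.2, and reads were mapped to rn5 with Bowtie. The authors called regions with HOMER findPeaks (version not stated) on the combined libraries of a condition, with a 150 bp peak size, a 370 bp minimum distance and stitching into regions of variable length, at 4-fold over combined input and a false discovery rate of 0.001. The local filter removed 0 peaks in either list, and the filter against input removed 541 in sham and 6818 at 1 dpi. Fragment length was 150 bp in sham and 128 bp at 1 dpi, and at most 1 and 3 tags were counted per bp. The deposited score is 1 for every region and was not used. The deposited starts and ends, in bp, are printed counted from 1.

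Covered bases, overlaps, gaps, bins and merged domains were computed in Python 3.11.15 with numpy 2.4.6, pandas 2.3.3 and scipy 1.17.1, and the functions were checked base by base on simulated regions. Regions named are the 3 widest, the first and the last, and the 3 longest gaps, of each interval and condition. Since the lists hold 1 value per condition, no test was made. The intervals, members and lists were chosen with earlier results of these data known. Alternatives covered list length, single windows, overlap, limits, bins and merging.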

Additional observations from a re-analysis of the deposited data

How the results depend on the processing

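The 18 results were recomputed under 64 alternatives. Of these, 38 kept the value within its counting interval or within 1.5-fold, 24 did not and 2 changed direction. The cause was not tested except where the construction gives it. Spans were scored for each condition alone, so a turn in the order of the conditions was not counted as a change of direction. The number of regions on chromosome 10, equal in both lists, could not be scored as changing direction either. The use of the first 25% of each list, of equal covered length and, for overlap, of wider regions was chosen after seeing the data. More covered bases at 1 dpi were found in both intervals under all 6 alternatives. The ratios were 1.50 to 1.85 on chromosome 10 and 1.64 to 2.03 on chromosome 7. The share of bins with more 1 dpi coverage stayed between 67.5% and 87.5%, beside 70.4% of joint domains over the genome.

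The number of regions on chromosome 7 changed direction. Its ratio, 0.949 as reported, was 1.10 for regions wider than a single window and 1.19 in the first 25% of each list, and 0.571 after merging within 1 kb. Overlap moved with its definition. With at least 50% of a region covered, the share was 56.0% for sham on chromosome 10, and 26.2% and 26.8% for 1 dpi on chromosomes 10 and 7, against 14.6% of sham and 11.5% of 1 dpi regions in the whole lists. Within 1 kb it was 97.6% and 98.3% for sham and 89.3% and 100% for 1 dpi, against 41.6% and 38.2% in the whole lists. The shares within 1 kb follow largely from the choice of densely called intervals. Gap numbers moved by construction. With a minimum of 1 kb, chromosome 10 had 32 sham gaps and 28 at 1 dpi, and chromosome 7 had 27 and 15. Those of at least 3 kb numbered 7, 6, 1 and 1. With wider regions only, chromosome 7 had 10 sham gaps and 8 at 1 dpi past the 2 kb minimum. The longest merged domain within 2 kb spanned 17.4 kb in sham and 48.8 kb at 1 dpi on chromosome 10, but 47.8 and 20.2 kb on chromosome 7. Within 10 kb, chromosome 10 gave 133 kb in sham and 128.55 kb at 1 dpi, so the order of the spans turned, and chromosome 7 gave 152 and 179 kb.

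No paired analysis was possible because the replicates of a condition were combined before calling, which also prevented leaving out a replicate. Depth limits every comparison of coverage, since 1 dpi had 3.88 times the tags of sham.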
